A study of Mus musculus with 4 samples.

Results

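The replication-dependent histone genes were taken as every gene whose name begins with Hist1h, Hist2h, Hist3h or Hist4h, which gave 70 of the 35522 genes listed for mouse liver. They were grouped by the letters that follow into 6 genes of the linker histone H1 and 20 H2A, 19 H2B, 12 H3 and 13 H4 genes of the core histones. RNA was sequenced from livers of C57BL/6 mice given diethylnitrosamine (DEN), a carcinogen that liver enzymes turn into a DNA-alkylating agent, and the libraries carry the label 24 h. Libraries 1 and 2 labelled Control were set against libraries 1 and 2 labelled Dph1 KO. Both genotypes received DEN, so no untreated liver enters any comparison. Dph1 takes part in the opening step of making diphthamide, a modified amino acid found on the elongation factor eEF2. How Dph1 was disrupted, in which cells, and which alleles the Control animals carry is not stated in the labels. The labels do not say whether the libraries of a genotype are separate mice, so each p-value reflects the spread among these libraries, which may be technical. Genotype is the sole labelled difference, and the comparison asks how Dph1 KO livers differ from Control livers after DEN.

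Core histones form the protein spool around which DNA is wound, and H1 binds where the DNA enters and leaves it. Genes of this family are read mostly while a cell copies its DNA, and their transcripts usually end in a conserved stem-loop in place of a poly(A) tail, a structure bound by the protein SLBP. Some members can also give longer, polyadenylated transcripts in cells that do not divide. The libraries were made with a stranded mRNA kit of a type that selects poly(A) RNA, so transcripts that end at the stem-loop are captured poorly as a rule, and the values below describe only the RNA that was captured.

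The stem-loop is the sequence feature that defines the family, and its letters set H4 apart from the other classes. The histone stem-loop motif, 16 bases with 6 of them free, was searched on the transcript strand of the longest GENCODE M21 transcript of each member (build GRCm38). It was found in 43 of 70 members (61.4%) and in 109 of 55271 other genes (0.197%). Transcripts without a match ran from 312 bases to 2620 (Hist2h2be), with Hist1h2bc among them at 1156. An annotation that ends early can leave the stem-loop out, so a member without a match may still carry it. Why the longer transcripts had no match was not tested. The 11 matches in H4 genes were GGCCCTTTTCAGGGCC (7 genes), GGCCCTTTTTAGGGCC (2 genes) and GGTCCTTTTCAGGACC (2 genes). The 32 matches of the other classes were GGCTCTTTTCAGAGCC (25 genes), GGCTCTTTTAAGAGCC (6 genes) and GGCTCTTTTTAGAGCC (1 gene), so no form was shared between H4 and another class. Genes that the results turn on are shown 5′ to 3′ in 26 bases, with the stem-loop letters in capitals.
Hist1h1c: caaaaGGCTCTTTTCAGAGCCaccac
Hist2h2aa1: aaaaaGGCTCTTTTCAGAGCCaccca
Hist1h2bk: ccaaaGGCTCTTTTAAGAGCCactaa
Hist1h4h: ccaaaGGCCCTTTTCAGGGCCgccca
Hist1h4n: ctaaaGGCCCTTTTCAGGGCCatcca
These stretches lie at chr13:23739507-23739532 (Hist1h1c, plus strand), chr3:96246027-96246052 (Hist2h2aa1, plus strand), chr13:22036295-22036320 (Hist1h2bk, plus strand), chr13:23531453-23531478 (Hist1h4h, plus strand) and chr13:21831793-21831818 (Hist1h4n, minus strand). In 20 of the 43 members, among them Hist1h2bk and Hist1h4n, the stem-loop lay outside the gene interval that the deposited tables list. A match is a run of letters, and no structure was measured.

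By name the members fall into 4 groups, with 56 Hist1 genes on chromosome 13, 10 Hist2 genes on chromosome 3, 3 Hist3 genes on chromosome 11 and 1 Hist4 gene on chromosome 6. Of the Hist1 genes, 55 lie within chr13:21715763-23934851, and Hist1h2al lies apart from them at chr13:51200084-51203969. In 14 cases an H2A and an H2B gene are neighbours read in opposite directions. Promoter windows of 300 bases (250 before the gene start and 50 after it) were available from RefSeq, build GRCm38.p6, for 62 members. Letters were searched on both strands and compared with all 27025 windows of this length. The TATA box letters TATAAA were in 56.5% of members and 14.2% of all windows. The letters CCAAT were in 85.5% of members and 37.9% of all windows, in every H1, H2A, H2B and H3 window but in 3 of 12 H4 windows. By contrast, GGTCC, part of the H4 promoter element known as site II, was in 11 of 12 H4 windows and 45.4% of all windows. The octamer ATTTGCAT, bound by the factor encoded by Pou2f1, was in 7 of 18 H2A and 6 of 16 H2B windows, in no other member, and in 1.75% of all windows. The E2F letters TTCCCGCC were in 5 of 12 H4 windows, in no other member, and in 2.24% of all windows.

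Promoters are shown for the H2A and H4 genes with most reads among those that fell, and for an H1 gene that was not called, picked after the values were seen. Matches to the TATA box, CCAAT box and site II letters on either strand are in capitals, and no matches overlap. The windows are chr13:23738557-23738856 (Hist1h1c), chr3:96245247-96245546 (Hist2h2aa1) and chr13:23530794-23531093 (Hist1h4h), all on the plus strand.
Hist1h1c: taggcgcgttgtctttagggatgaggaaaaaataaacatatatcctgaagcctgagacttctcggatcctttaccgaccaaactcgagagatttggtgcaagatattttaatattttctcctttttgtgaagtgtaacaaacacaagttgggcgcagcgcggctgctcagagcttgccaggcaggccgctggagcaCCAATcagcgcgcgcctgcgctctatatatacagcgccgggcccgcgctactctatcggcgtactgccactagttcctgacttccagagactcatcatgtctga
Hist2h2aa1: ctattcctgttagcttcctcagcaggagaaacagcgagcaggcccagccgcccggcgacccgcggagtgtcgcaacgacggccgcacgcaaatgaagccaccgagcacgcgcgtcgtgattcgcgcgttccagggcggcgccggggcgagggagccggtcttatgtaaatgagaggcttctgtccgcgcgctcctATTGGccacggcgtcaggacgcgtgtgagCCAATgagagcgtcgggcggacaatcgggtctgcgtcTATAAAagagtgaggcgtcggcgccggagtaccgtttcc
Hist1h4h: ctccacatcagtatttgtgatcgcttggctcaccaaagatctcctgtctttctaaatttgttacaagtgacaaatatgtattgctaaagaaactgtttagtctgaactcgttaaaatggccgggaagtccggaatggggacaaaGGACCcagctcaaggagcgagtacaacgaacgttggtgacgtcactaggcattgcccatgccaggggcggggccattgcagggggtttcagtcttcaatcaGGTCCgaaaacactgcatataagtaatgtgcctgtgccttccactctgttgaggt
Hist1h1c carries CCAAT alone, Hist2h2aa1 carries CCAAT on both strands and TATAAA, and Hist1h4h carries GGTCC on both strands.

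A read was assigned to 61 of the 70 members in at least 1 library, and 9 were listed at 0 in all 4. Histone genes held 9296 and 8826 reads in Control against 6635 and 7580 reads in Dph1 KO, of 19474596 to 21137358 reads per library. Only 40.6% and 31.0% of the Control histone reads against 50.7% and 45.1% of the Dph1 KO histone reads were uniquely matched, while 89.3% to 90.2% of all reads were. For 10 of these 61 members, no read was unique. Among them Hist1h1d is overlapped over its full 2977 bases by another listed gene (LOC101056226) on the same strand. Reads shared among copies or overlapping genes can be divided among them in more than 1 way. Single members are therefore uncertain wherever the unique reads are few. All 8 listed hepatocyte markers were detected and tested. Dph1 had 1292 and 1228 reads in Control against 421 and 689 reads in Dph1 KO, a log2 fold change of -1.49 (SE 0.26, adjusted p = 0.0107 by edgeR's quasi-likelihood test), so its RNA was lower but still present in the Dph1 KO libraries.

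Most histone reads came from 3 genes, which held 86.0% of them. Hist2h2aa1, an H2A gene of the Hist2 cluster, took 43.1% of histone reads, Hist1h2bc, an H2B gene, 23.5%, and Hist1h1c, which encodes the linker histone H1.2, 19.5%. Per length, as mean TPM over the 4 libraries, Hist2h2aa1 stood at 505, Hist1h2bc at 219 and Hist1h1c at 86.2, and the next, the H4 gene Hist1h4h, at 35.0. Only 18 members had a mean of at least 20 reads, and the other 52 held 2.04% of histone reads together. Of the 18, 12 are annotated with over 1000 exon bases or more than 1 exon, against 4 of the other 52, a split made after the values were seen. The cut of 20 reads is not scaled by length, so a long gene reaches it at a lower TPM. Part of this difference is therefore built into the cut. Hist1h1c has 840 annotated bases after its stem-loop, Hist1h2be 1861 and Hist1h2ac 2010. Hist2h2aa1, with the most reads, has 35, Hist1h4h 46 and Hist1h4n 31.

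**Figure D1:**
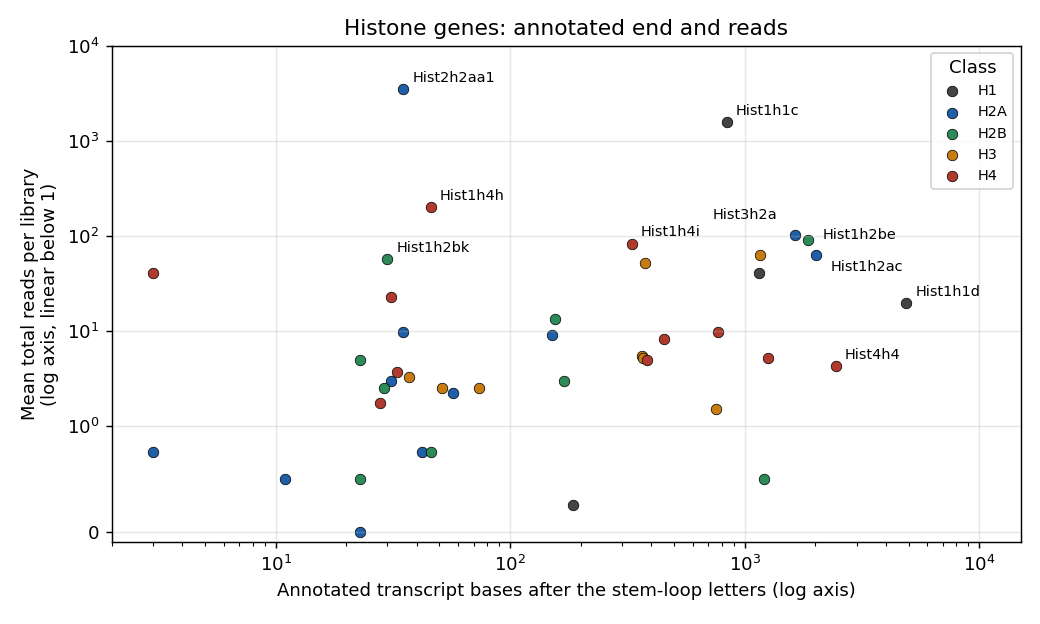
Mean total reads per library (vertical, log axis, linear below 1) of the 43 histone genes whose longest transcript holds the stem-loop letters, against the annotated transcript bases after those letters (horizontal, log axis), coloured by class. Hist2h2aa1 has the most reads with 35 bases after the stem-loop, and Hist1h1c the next most of these 43 with 840 bases. Hist1h2bc has no match and is not shown.

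In livers labelled Dph1 KO, summed histone RNA was lower than in Control for H4 (30.7% of Control), H2A (45.9%) and H3 (64.4%), while H1 and H2B sums overlapped. In unique reads the shares were 34.9% for H4, 61.9% for H3 and 68.3% for H2A, whose total rests on 1 gene with no unique read. Of the 21 members that passed the filter on low counts, 5 fell (Hist2h2aa1, Hist1h4h, Hist1h4m, Hist1h4n and Hist1h2be), 1 rose (Hist1h2bk) and 15 did not pass the test (adjusted p at most 0.05, edgeR's quasi-likelihood test over 13303 genes). Over all genes tested 12.3% were called, 7.47% as lower and 4.86% as higher. Levels are given as reads or as CPM, which here are reads scaled to 1000000 reads and by TMM factors. The median log2 fold change of the 21 was -0.75, against 0.04 for all genes tested, and 18 were negative and 3 positive. In 12 of the 21 both Dph1 KO libraries lay below both Control libraries, in 1 above, and in 8 the genotypes overlapped, where 32.5% of all genes tested lay below and 34.9% above. The 21 are the members with enough reads to test and do not stand for the other 49, of which 40 had reads. Those 49 held 163 and 123 reads in Control against 90 and 93 in Dph1 KO.

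Fold changes in these libraries moved with the GC content of the transcript, with a Spearman correlation of -0.62 across 11555 genes, which are not independent replicates. The 21 tested members had a median GC content of 52.7%, against 49.95% for these genes and 58.1% for all 70 members. Among the called members it ran from 45.7% (Hist1h2be) to 63.7% (Hist2h2aa1), with Hist1h4h at 57.9%. The class sums given here were not corrected for GC content. With a GC and length trend of each library entered as an offset, the correlation was -0.03. In that fit 1 member rose and 4 fell, while 11.1% of all genes tested were called (5.4% as higher, 5.73% as lower), and the median of the 21 members was -0.37, against 0.01 for all genes. With uniquely matched reads alone, 13 members could be tested, 0 rose and 4 fell (Hist1h4h, Hist1h4m, Hist1h4i and Hist1h2be), with 12.3% of all genes called (4.8% as higher, 7.53% as lower). Log2 fold changes "with the GC offset" or "with unique reads" below come from these fits.

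Marker sums of several cell types were lower in Dph1 KO as well, that of hepatocytes included. Beside the called markers below, 7.47% of all genes tested fell and 4.86% rose. The 8 hepatocyte markers summed to 72974 and 90620 CPM in Control against 60442 and 61138 in Dph1 KO. Of these 1 fell, Apoa1 (log2 fold change -1.92, SE 0.38, adjusted p = 0.0161, edgeR), from a mean of 29840 CPM to 7882. The 8 had 4 negative and 4 positive log2 fold changes, with a median of 0.03, against 0.04 for all genes. The lower sum therefore does not stand for hepatocyte markers in general. Of 9 listed red cell precursor markers 6 were in the tables, and their sum was 685 and 1476 CPM in Control against 356 and 397 in Dph1 KO. Most of that sum was the globin gene Hba-a1, which fell from 599 and 1390 CPM to 161 and 188, while its near-identical copy Hba-a2 rose from 1.25 and 1.61 CPM to 113 and 125. Klf1 fell (-1.17), and Alas2, which opens heme synthesis in red cell precursors, stood at 79.7 and 79.2 CPM in Control against 80.1 and 82.3 in Dph1 KO, so these markers did not move together. B and plasma cell markers summed to 5.66 and 6.56 CPM in Control against 3.81 and 3.25 in Dph1 KO, with 1 of 3 tested (Cd79a) lower. Endothelial markers summed to 169 and 159 CPM in Control against 144 and 146 in Dph1 KO, with none of 5 called. Stellate cell sums overlapped, and 2 of 5 markers fell (Col1a1 and Des). Of these 5 log2 fold changes 3 were negative and 2 positive (Lrat at 0.84 and Dcn at 0.29). Klf1, Cd79a, Col1a1 and Des were not called with the GC offset. Macrophage markers summed to 234 and 242 CPM in Control against 128 and 221 in Dph1 KO, with 1 of 5 (Cd68) lower, and T cell, neutrophil and bile duct cell sums overlapped. The part of these cells in the histone values was not tested, and in bulk liver fewer cells of a type and less RNA per cell cannot be told apart.

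**Figure D2:**
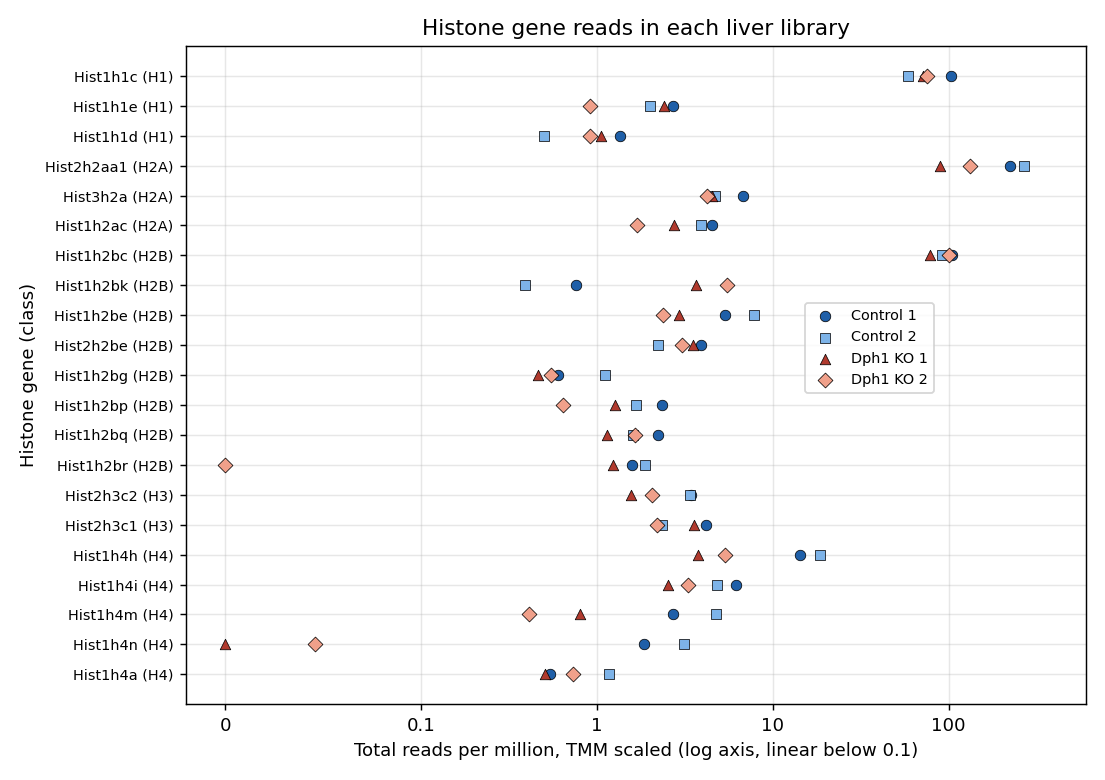
Total CPM, scaled by TMM factors (horizontal, log axis, linear below 0.1), of the 21 tested histone genes in each library. The 4 points of a row are the 2 Control (blue) and 2 Dph1 KO (red) libraries, and those of Hist2h2aa1, Hist1h4h, Hist1h4m and Hist1h4n lie apart with Dph1 KO lower.

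H4, which pairs with H3 at the core of the spool, had the lowest level in Dph1 KO relative to Control among the 5 classes. The 13 H4 genes summed to 30.6 and 34.1 CPM in Control against 8.77 and 11.1 in Dph1 KO. Both Dph1 KO libraries lay below both Control libraries, with a mean at 30.7% of Control. Uniquely matched reads gave 34.9%, from 16.3 and 16.9 CPM in Control against 4.70 and 6.86 in Dph1 KO. The level did not rest on 1 gene, since H4 without Hist1h4h stood at 33.7% of Control. Of 5 H4 genes tested 3 fell and all 5 had negative log2 fold changes, with a median of -1.85. Over all genes tested 7.47% fell, and the median was 0.04. Among the 3, Hist1h4m and Hist1h4n are near-identical copies, so theirs are not separate calls. With the GC offset 2 of the 5 fell, 4 were negative and 1 was positive (Hist1h4a, at 0.27), and the median was -1.07. In that fit 5.73% of all genes fell, and the median was 0.01.

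**Figure D3:**
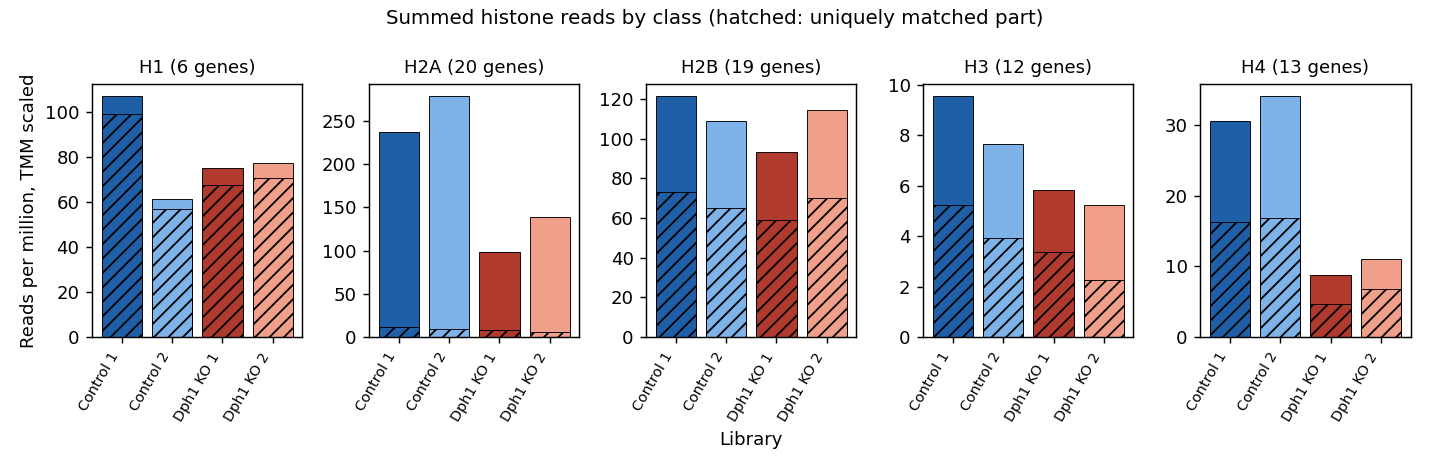
Summed CPM of each histone class in the 2 Control and 2 Dph1 KO libraries (bars, total reads, scaled by TMM factors), with the uniquely matched part hatched and a vertical scale of its own for each class. H4 in Dph1 KO stands at 30.7% of Control in all reads and 34.9% in unique reads, and almost none of the H2A reads are unique.

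Hist1h4h (chr13:23531044-23531522, plus strand, 1 exon) is the most abundant H4 gene. It had 264 and 333 reads in Control against 89 and 117 in Dph1 KO, that is 14.4, 18.5, 3.77 and 5.35 CPM. The genotypes did not overlap, and the gene fell by 1.85 on the log2 scale (SE 0.25, adjusted p = 0.00285, edgeR). It also fell with unique reads (-1.82, adjusted p = 0.0101) and with the GC offset, where the log2 fold change was smaller (-1.07, adjusted p = 0.00928). Of its reads 57.9% were unique.

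Hist1h4m (chr13:21811746-21812150, plus strand) and Hist1h4n (chr13:21831847-21832158, minus strand) are near-identical H4 copies. Of the 50-base words of the Hist1h4m transcript (every run of 50 bases, standing in for reads), 89.8% occur in Hist1h4n, and 83.2% the other way. Hist1h4m had 50 and 86 reads in Control against 19 and 9 in Dph1 KO, of which 12, 19, 7 and 2 were unique. It fell by 2.60 on the log2 scale (SE 0.44, adjusted p = 0.00869, edgeR), and by 1.60 with the GC offset, where it missed the threshold (adjusted p = 0.0685). Hist1h4n had 34 and 56 reads in Control against 0 and 1 in Dph1 KO, none of them unique. Its 90 Control reads against 1 Dph1 KO read give a ratio of 112.5 between the depth-scaled sums, with a 95% counting interval of 19.7 to 4492, and the gene was called by edgeR (adjusted p = 9.89e-04). Summed over the pair, a sum formed after the data were seen, the reads were 84, 142, 19 and 10. In CPM the pair stood at 10.1% of Control, with no overlap between the genotypes.

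Hist1h4i (chr13:22040816-22041352, minus strand), the remaining H4 gene with at least 20 reads on average, had 114 and 87 reads in Control against 60 and 72 in Dph1 KO. Scaled, the genotypes did not overlap (6.2 and 4.84 CPM against 2.54 and 3.29). Its log2 fold change of -0.92 (SE 0.29) did not pass the test with all reads (adjusted p = 0.0585, edgeR) and passed with unique reads (-1.06, adjusted p = 0.0479). With the GC offset it was -0.49 (adjusted p = 0.206), and without Dph1 KO library 2 it was -1.10 and called.

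H2A, which pairs with H2B, was carried by reads listed under 1 gene, Hist2h2aa1. None of them was unique, so they cannot be told from reads of its copy Hist2h2aa2. The 20 H2A genes summed to 237 and 279 CPM in Control against 98.0 and 139 in Dph1 KO, which is 45.9% of Control, with no overlap. Almost none of this was unique. Unique H2A reads came to 11.7 and 9.29 CPM in Control against 7.80 and 6.54 in Dph1 KO, or 68.3% of Control. The 3 H2A genes tested all had both Dph1 KO libraries below both Control libraries, as had 32.5% of all genes tested. Of the 3, 1 fell (Hist2h2aa1), where 7.47% of all genes fell.

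Hist2h2aa1 (chr3:96245538-96246115, plus strand, 1 exon) had 4117 and 4822 reads in Control against 2113 and 2875 in Dph1 KO. Dph1 KO lay below Control in each library, at 89.6 and 131 CPM against 224 and 268. The gene fell by 1.15 on the log2 scale (SE 0.26, adjusted p = 0.0239, edgeR), and the call was lost without Control library 2, with a log2 fold change of -1.02. With the GC offset the log2 fold change was -0.17 and the gene was not called (adjusted p = 0.515). None of its reads was unique, and its neighbour Hist2h2aa2 (chr3:96239716-96240374, minus strand) holds 89.2% of the 50-base words of its transcript. The tables gave the 2 copies very unequal reads, and their sums of 4128, 4831, 2122 and 2885 reads left the ratio at 45.0% of Control.

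Hist3h2a and Hist1h2ac are H2A genes with long annotated ends whose reads were almost all unique. Hist3h2a (chr11:58954685-58956674, plus strand) had 125 and 85 reads in Control against 106 and 93 in Dph1 KO, with a log2 fold change of -0.40 (SE 0.27, adjusted p = 0.315, edgeR). Hist1h2ac (chr13:23681467-23683959, minus strand) had 83 and 70 reads in Control against 65 and 37 in Dph1 KO. Its log2 fold change of -0.91 (SE 0.33) did not pass the test (adjusted p = 0.0818, edgeR) but passed with the GC offset (-1.13, adjusted p = 0.0319) and without Dph1 KO library 1 (-1.29).

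H2B sums overlapped between the genotypes, at 122 and 109 CPM in Control against 93.2 and 114 in Dph1 KO. In Dph1 KO the mean was 90.0% of Control, though 107% when scaled by library total and 124% in TPM, so no direction is given for the class. Most of it was Hist1h2bc (chr13:23684199-23692480, plus strand, 2 exons), with 1915 and 1640 reads in Control against 1849 and 2184 in Dph1 KO. That gene overlapped between genotypes in CPM, and its log2 fold change was -0.13 (SE 0.22, adjusted p = 0.691, edgeR) with all reads and -0.01 with unique ones. The class without it held 320 and 320 reads in Control against 349 and 314 in Dph1 KO, or 82.8% of Control in CPM.

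Hist1h2be (chr13:23583670-23621124, minus strand, 4 exons) fell, and 90.0% of its reads were unique. It had 99 and 140 reads in Control against 69 and 52 in Dph1 KO, with no overlap in CPM. Of these, 30 and 22 in Control against 24 and 15 in Dph1 KO were intron reads. Its log2 fold change was -1.31 (SE 0.29, adjusted p = 0.0239, edgeR), -1.25 with unique reads (adjusted p = 0.0263) and -1.54 with the GC offset (adjusted p = 0.00678). Without Control library 2 it was -1.02 and the call was lost. Its interval overlaps the H1 gene Hist1h1e by 497 bases on the same strand.

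Hist1h2bk (chr13:22035887-22036267, plus strand, 1 exon) was the sole member that rose. It had 14 and 7 reads in Control against 86 and 120 in Dph1 KO, none of them unique. Both Dph1 KO libraries lay above both Control libraries, and the log2 fold change was 2.97 (SE 0.42, adjusted p = 0.0033, edgeR) and 3.82 with the GC offset. Of the 50-base words in its listed interval, 95.2% are held by other histone genes, most by Hist1h2bq and Hist1h2br. These are near-identical H2B copies with no unique read either, and their summed reads were 70 and 63 in Control against 56 and 36 in Dph1 KO. Within that pair Hist1h2br went from 29 and 34 reads in Control to 29 and 0 in Dph1 KO, while Hist1h2bq had 41, 29, 27 and 36. All H2B reads of these 3 genes came to 84 and 70 in Control against 142 and 156 in Dph1 KO, which is 155% of Control in CPM. Neither Hist1h2bk nor this pair can be measured on its own with unique reads.

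Hist2h2be and Hist1h2bp have mostly unique reads. Hist2h2be (chr3:96221121-96223738, plus strand) had 72 and 40 reads in Control against 83 and 67 in Dph1 KO, overlapping and with a log2 fold change of 0.10 (SE 0.34). Hist1h2bp (chr13:21787488-21789213, plus strand) had 43 and 30 reads in Control against 30 and 14 in Dph1 KO. Most of them were intron reads, 25 and 21 in Control against 22 and 9 in Dph1 KO. With these included, the log2 fold change of Hist1h2bp was -1.06 (SE 0.43) and did not pass the test (adjusted p = 0.111, edgeR).

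H3 was the least abundant core class. Its 12 genes summed to 9.57 and 7.67 CPM in Control against 5.85 and 5.26 in Dph1 KO, without overlap and at 64.4% of Control. The H3 genes tested, Hist2h3c2 and Hist2h3c1, are copies that share part of their sequence, and neither was called. Hist2h3c2 (chr3:96238108-96239127, minus strand) had 63 and 61 reads in Control against 37 and 45 in Dph1 KO, without overlap in CPM. Its log2 fold change was -0.91 (SE 0.31, adjusted p = 0.0756, edgeR), and -0.14 with the GC offset. Without Dph1 KO library 2 it was -1.10 and called. Hist2h3c1 (chr3:96246685-96248509, plus strand) overlapped between genotypes, with 77 and 42 reads in Control against 84 and 48 in Dph1 KO and a log2 fold change of -0.18 (SE 0.37).

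H1 overlapped between the genotypes too. The 6 H1 genes summed to 107 and 61.3 CPM in Control against 75.4 and 77.3 in Dph1 KO, at 90.6% of Control, though at 108% when scaled by library total and 118% in TPM. The Dph1 KO libraries lay between the Control libraries. Hist1h1c (chr13:23738807-23740367, plus strand), with 93.1% unique reads, had 1897 and 1055 reads in Control against 1694 and 1649 in Dph1 KO. Its log2 fold change was -0.14 (SE 0.26, adjusted p = 0.738, edgeR) and 0.32 without Control library 1. Hist1h1e (chr13:23620628-23622558, minus strand), which encodes H1.4, had 50 and 36 reads in Control against 57 and 20 in Dph1 KO, again overlapping, with a log2 fold change of -0.49 (SE 0.44).

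**Figure D4:**
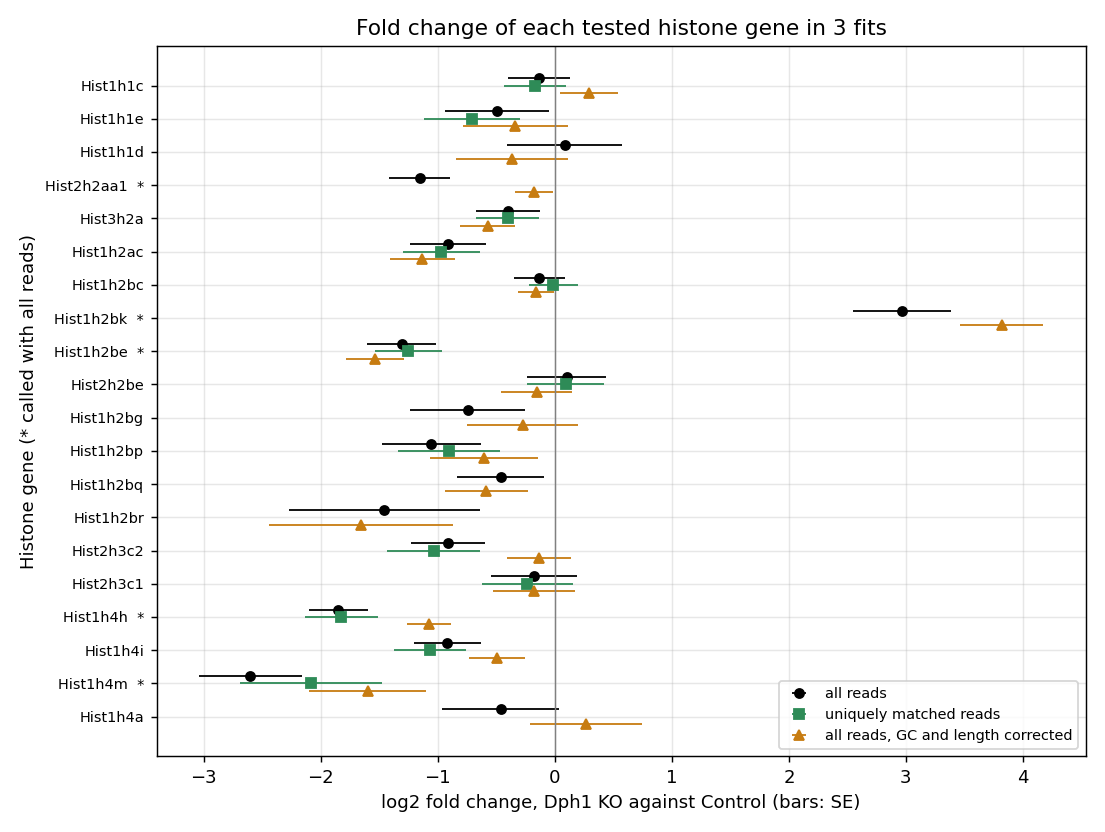
Log2 fold change of Dph1 KO against Control (horizontal, bars are standard errors) of 20 tested histone genes with all reads, with uniquely matched reads where testable, and with all reads and the GC and length offset; Hist1h4n, with 0 and 1 reads in Dph1 KO, is left out. Hist1h4h, Hist1h4m and Hist1h2be lie below 0 in each fit, while Hist2h2aa1 moves from -1.15 to -0.17 with the GC offset and has no unique reads.

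Split by annotated length, again after the values were seen, the 13 tested members with over 1000 exon bases or more than 1 exon had 1 that fell, none that rose and a median log2 fold change of -0.46. The 8 short ones had 4 that fell, 1 that rose and a median of -1.04. All 5 tested H4 genes are among the short ones and hold 3 of the 4 that fell, the copies Hist1h4m and Hist1h4n included. No tested H4 gene is long, so length and class are mixed in this split. Over all genes tested 7.47% fell and 4.86% rose. These values come from the fit without the GC and length offset, so a length trend of the libraries is still in them. With the offset the short Hist2h2aa1 (-0.17) and Hist1h4m (-1.60) were not called, and the long Hist1h2ac (-1.13) was. The difference between long and short members was not tested.

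Genes that make, process and remove histone RNA were read from lists. None of the 16 tested factors of histone 3′ end processing was called by edgeR, with 4 at an unadjusted p under 0.05, as were 34.2% of all genes, and 1 called by DESeq2, which called 15.0% of all genes. Slbp, the stem-loop binding protein, stood at 6.96 and 5.95 CPM in Control against 7.59 and 7.18 in Dph1 KO, with a log2 fold change of 0.19 (SE 0.23). Sympk, the scaffold of the cleavage complex, stood at 249.3 and 293.1 CPM in Control against 145 and 178 in Dph1 KO, with -0.75 (SE 0.24, adjusted p = 0.0634, edgeR), and Cpsf1, a subunit that also acts in poly(A) cleavage, had -0.42 (SE 0.20). Of 7 histone gene transcription factors and cofactors none was called by edgeR or DESeq2, with 1 at an unadjusted p under 0.05. The most abundant were Yy1, a zinc finger transcription factor, at 0.33 on the log2 scale (SE 0.19), and Cdk2, the kinase that acts on Npat, at 0.13 (SE 0.23). Npat, the coactivator of histone genes, overlapped between genotypes at 4.19, 3.95, 6.36 and 3.75 CPM. Nor was any of 9 histone mRNA decay factors called by either tool, with 3 under an unadjusted p of 0.05 in edgeR. For Upf1, the helicase recruited to the stem-loop, the log2 fold change was -0.41 (SE 0.20), and for Mif4gd, a partner of SLBP, it was 0.01 (SE 0.22). These counts were higher without Dph1 KO library 2: 6 of the 3′ end factors (Sympk among them, at -0.89), 2 of the transcription factors and 4 of the decay factors were called, with 5405 genes called over the whole table (39.3%).

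Of 16 tested histone chaperones, 1 rose and 1 fell, a share near the 12.3% called over all genes tested. Atrx, which deposits the variant H3.3, went from 12.5 and 13.4 CPM in Control to 33.0 and 21.3 in Dph1 KO (log2 fold change 1.07, SE 0.24, adjusted p = 0.0237, edgeR). Ipo4, an importer of histones into the nucleus, went from 195 and 241 CPM to 102 and 140 (-0.85, SE 0.25, adjusted p = 0.0497, edgeR). Neither was called with the GC offset, at 0.32 and -0.50. Atrx was not called without Control library 1 (1.01) or 2 (1.12), and Ipo4 was called without Dph1 KO library 2 (-1.07) but not without Control library 1 (-0.9995), Control library 2 (-0.69) or Dph1 KO library 1 (-0.61). Of 11 tested histone genes that are read outside DNA replication, 2 fell and none rose, where 7.47% of all genes fell and 4.86% rose. H2afx, whose protein is phosphorylated at DNA breaks, had 25.6 and 27.1 CPM in Control against 11.95 and 15.8 in Dph1 KO (-0.93, SE 0.21, adjusted p = 0.0245, edgeR), and -0.11 with the GC offset, where it was not called, nor was it without Control library 1 (-0.97) or 2 (-0.89). H2afv, which encodes a form of the H2A.Z variant, had 34.5 and 45.0 CPM in Control against 18.6 and 25.1 in Dph1 KO (-0.87, SE 0.23, adjusted p = 0.0371, edgeR), and was called with the offset (-0.94) but not without Control library 2 (-0.66).

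Of 23 tested genes of DNA replication, 1 fell and none rose, where 12.3% of all genes were called, and their median log2 fold change was 0.05, against 0.04 for all genes. Without Dph1 KO library 2, 6 were called, where 39.3% of all genes were. The one that fell was Cdt1, which licenses replication origins, from 13.8 and 13.4 CPM in Control to 3.90 and 5.44 in Dph1 KO (-1.54, SE 0.24, adjusted p = 0.00577, edgeR). Pcna, the sliding clamp of the replication fork, stood at 14.96 and 14.3 CPM in Control against 14.5 and 15.4 in Dph1 KO. None of 6 tested G2 and mitosis genes was called by edgeR or DESeq2, and none had an unadjusted p under 0.05. All 6 had positive log2 fold changes, with a median of 0.41 against 0.04 for all genes, and in 4 both Dph1 KO libraries lay above both Control libraries, as in 34.9% of all genes. The most abundant were the mitotic kinase gene Aurka, at 0.39 (SE 0.40), and Birc5, a subunit of the chromosomal passenger complex, at 0.24 (SE 0.42). The proliferation marker Mki67 was below 1 CPM in all libraries.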

How the data were processed

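Liver RNA was sequenced in 4 libraries, 2 per genotype, made from Trizol-extracted RNA with a stranded mRNA kit, per the labels' protocols. Per the submitters' processing notes, reads were placed on build GRCm38 (mm10). The sources used here do not give the aligner, the counter, the read length or the way shared reads were divided. The deposited tables hold raw counts of reads for each gene (total and unique), per the file headers, beside TPM and RPKM that the authors computed. Deposited ratios, each a fraction from 0 to 1, and RPKM were not used, and other deposited columns hold annotation such as exon number.

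Total gene reads were tested in R 4.3.3 with edgeR 4.0.16 (filterByExpr, TMM scaling, quasi-likelihood test, genotype as the only term), with Benjamini-Hochberg adjustment over 13303 genes and a threshold of 0.05. TMM factors were 0.945 and 0.884 for Control against 1.16 and 1.04 for Dph1 KO, and the biological coefficient of variation was 18.5%. The GC and length trend was a smooth in each library (mgcv 1.9.3, basis size 6), with GC from the longest GENCODE M21 transcript, available for all 70 members. Alternatives were other scalings and filters, DESeq2 1.42.0, limma 3.58.1 (voom, and trend on log2(TPM + 1) and log2(TPM + 0.1)), unique and exon reads, and each library left out. Counts were simulated for this comparison (13130 genes). The share of altered genes recovered was 5.97% at 1.5-fold, 49.3% at 2-fold and 100% at 4-fold, and 5 of 108 calls were false. Changes were placed only in genes averaging 5 CPM or more, and no GC trend was simulated. These shares therefore do not cover members at lower levels, such as Hist1h4m and Hist1h2bk, or calls that follow GC content. Tables and sequence searches used Python 3.11.15 with pandas 2.3.3 and SciPy 1.17.1. Words of 50 bases stand in for reads and were matched on both strands against the other members.

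Members, gene lists and tests were chosen with earlier results of these data known. Members with a mean of at least 20 reads could be named. Statistics were given for every called member and the 3 most abundant of each class by TPM, and for each list up to 3 called genes or, with none called, the 2 most abundant. Slbp, Npat, Pcna, Mki67, Hist2h2be, Hist1h2bp, Hist1h4a, Hist1h1d, Hist2h2aa2 and the cell type markers were named outside this rule after their values were seen. So were the H2B genes that share reads with Hist1h2bk. Copy sums, word sharing, the stem-loop and promoter searches, and the long and short groups were added after the data were seen. The interval of a read ratio is a 95% Clopper-Pearson interval and covers counting error only.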

Additional observations from a re-analysis of the deposited data

How the results depend on the processing

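The count of called histone genes was 6 and stayed within 1.5 times in 14 of 17 alternatives. A similar count did not always hold the same genes. With the GC offset Hist2h2aa1 and Hist1h4m were lost and Hist1h2ac was gained. With unique reads Hist1h4i was gained, and Hist2h2aa1, Hist1h4n and Hist1h2bk could not be tested. The count was 10 with no filter, and 0 with limma-trend on log2(TPM + 1) and on log2(TPM + 0.1), which called 3 and 23 genes in all against 1640 by edgeR. With 1 library left out it ran from 5 to 9, while the count over all genes ran from 528 without Control library 2 to 5405 without Dph1 KO library 2. Where 1 library stood for a genotype, its spread was taken from the other pair.

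Scaling by library total moved the median of all genes from 0.04 to 0.30 on the log2 scale. Under it the log2 ratio of class sums was 0.10 (H2B), -0.37 (H3) and -1.45 (H4), against -0.15, -0.63 and -1.70 with TMM, and 4 3′ end factors, 1 transcription factor, 4 decay factors, 4 chaperones and 4 replication genes were called. In TPM the class ratios were -0.76 (H2A), 0.31 (H2B), -0.40 (H3) and -1.38 (H4), and for H2A it was -0.55 with unique reads. With 1 library left out they ran from -0.49 to 0.32 (H1), -1.39 to -0.89 (H2A), -0.31 to -0.01 (H2B), -0.79 to -0.47 (H3) and -1.88 to -1.55 (H4).

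The 3′ end factors had 1 call with upper quartile scaling, DESeq2, unique exon reads and the GC offset, and 0 to 6 with 1 library left out. The transcription factors had 1 with no filter, total exon reads and unique exon reads, and 0 to 2 with 1 library left out; the decay factors had 0 to 4. The chaperones had 1 with a mean of at least 1 CPM, limma-voom and the GC offset, 0 in both TPM fits, and 0 to 4 with 1 library left out. The replication-independent histone genes had 1 with the GC offset, 0 in both TPM fits and 0 to 4 with 1 library left out. The replication genes had 2 with DESeq2 size factors, no filter, total exon reads and unique exon reads, 0 in both TPM fits and 1 to 6 with 1 library left out.

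Some uncalled genes changed sign. With all reads and TMM scaling, those listed here stood between -0.49 (Hist1h1e) and 0.01 (Mif4gd). Hist1h1c was 0.11 by library total, 0.31 in both TPM fits, 0.29 with the GC offset and 0.32 without Control library 1. Hist1h2bc was 0.12 by library total, 0.24 in both TPM fits, 0.0099 with unique exon reads, and -0.30 to 0.056 with 1 library left out. Hist2h3c1 was 0.087 by library total, 0.17 and 0.22 in the TPM fits, 0.30 without Control library 1 and 0.14 without Dph1 KO library 2. Hist1h1e was -1.34 to 0.046 with 1 library left out, Hist3h2a 0.011 and 0.017 in the TPM fits, and Upf1 0.0087 with the GC offset. Mif4gd, at 0.01, was -0.016 with DESeq2 size factors and with DESeq2, -0.17 without Control library 1 and -0.16 without Dph1 KO library 2. For each change above the cause was not tested.

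No paired analysis was possible because the labels give no replicate numbers that link a Control to a Dph1 KO library. Depth limits the 49 untested members, whose highest mean was 9.75 reads.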
